A study of Mus musculus with 4 samples.

Results

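Plasmacytoid dendritic cells are represented here by 10 genes, Siglech, Ly6d, Dntt, Tcf4, Bst2, Spib, Irf8, Pacsin1, Runx2 and Tlr9, of the 48526 gene identifiers in the deposited expression table. They were taken as genes that plasmacytoid dendritic cells express, and they were chosen by the rlog values of Siglech, Ly6d and Dntt in the comparison reported here, which were lower together in 1 of the 2 groups. Their differences are therefore a description, with no test. The samples are lamina propria mononuclear cells (LPMCs), isolated from the connective tissue layer of the gut, from mice given CD4 T cells, and their RNA was sequenced. Wild-type CD4 cells were given for 2 samples, labelled with a pronounced colitis. CD4 cells deficient in both Hobit and Blimp (DKO), a pair of transcriptional repressors of tissue-resident lymphocytes, were given for the other 2, labelled with a mild colitis. The groups, called wild type and DKO below, had 2 biological replicates each and differ in the genotype of the given cells. The labelled colitis goes with that genotype in every sample, so genotype and colitis cannot be told apart here. As only CD4 cells were given, every sample also holds cells of the host. Strain, age and remaining lymphocytes of the hosts are not stated in the labels.

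Plasmacytoid dendritic cells sense viral and other nucleic acids in endosomes and can release large amounts of type I interferon. Their identity is held by the E protein Tcf4 (E2-2), which binds E-box sequences and is opposed by the inhibitor Id2, and by Spib, an ETS factor. They share a history with lymphocytes: precursors that carry Siglec-H and Ly6D on their surface give rise to plasmacytoid dendritic cells, and these can express Dntt and other genes of antigen receptor rearrangement. Most of the 10 genes are not confined to this cell type. Ly6d is also known from B cells and stratified epithelium, Dntt from early lymphocytes, Bst2 as an interferon-induced gene of many cells, Irf8 from other dendritic cells and macrophages, Tcf4 from stromal cells, and Pacsin1 from neurons.

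Promoter windows were looked at because Tcf4 binds E-boxes and Bst2 is induced by interferon. RefSeq windows (GRCm38.p6) from 250 bases before to 50 bases after the annotated start were found for 8 of the 10 genes, in 9 windows. The sequences are shown for Siglech, Dntt and Spib, which had the lowest differences (DKO minus wild type) among the genes with a window, and 1 for Bst2. All are printed 5′ to 3′ on the strand of the gene. Capitals mark the E-box letters CANNTG, which read the same on both strands, in the first 3 sequences. In the last sequence they mark the core of the interferon-stimulated response element, searched on both strands as GAAA, 2 bases of any kind and GAAA again. The windows are chr7:55767934-55768233 on the plus strand for Siglech, chr19:41029025-41029324 on the plus strand for Dntt, chr7:44532022-44532321 on the minus strand for Spib and chr8:71537423-71537722 on the minus strand for Bst2.
Siglech: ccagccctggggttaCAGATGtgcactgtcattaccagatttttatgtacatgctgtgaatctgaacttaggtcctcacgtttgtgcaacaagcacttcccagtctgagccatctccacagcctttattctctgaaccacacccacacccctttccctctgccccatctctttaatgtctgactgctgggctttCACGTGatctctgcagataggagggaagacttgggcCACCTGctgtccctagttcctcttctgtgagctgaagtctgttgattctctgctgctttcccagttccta
Dntt: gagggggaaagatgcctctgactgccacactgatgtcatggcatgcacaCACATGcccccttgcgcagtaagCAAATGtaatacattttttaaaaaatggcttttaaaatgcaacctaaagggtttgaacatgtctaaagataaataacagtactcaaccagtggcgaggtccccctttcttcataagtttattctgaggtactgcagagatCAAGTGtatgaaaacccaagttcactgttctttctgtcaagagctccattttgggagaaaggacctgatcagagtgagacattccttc
Spib: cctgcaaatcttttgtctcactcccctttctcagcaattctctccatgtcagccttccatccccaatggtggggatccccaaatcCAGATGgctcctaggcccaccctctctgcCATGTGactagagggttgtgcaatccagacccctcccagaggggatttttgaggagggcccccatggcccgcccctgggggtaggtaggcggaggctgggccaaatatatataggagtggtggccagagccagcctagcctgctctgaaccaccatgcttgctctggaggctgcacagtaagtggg
Bst2: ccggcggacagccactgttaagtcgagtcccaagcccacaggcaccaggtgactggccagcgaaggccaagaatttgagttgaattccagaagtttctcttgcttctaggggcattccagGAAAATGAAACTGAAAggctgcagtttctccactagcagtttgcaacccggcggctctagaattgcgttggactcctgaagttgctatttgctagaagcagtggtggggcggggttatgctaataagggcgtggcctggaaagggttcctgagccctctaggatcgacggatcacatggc

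The Siglech and Dntt windows held 3 E-boxes each and the Spib window 2. Of all 32851 windows, 72.3% held at least 1 E-box, 39.6% at least 2 and 17.6% at least 3. The Tlr9 window held 4, a number reached by 6.49% of windows, while the Pacsin1 window and 1 of the 2 Irf8 windows held 0. The Bst2 window held 2 overlapping matches to this core, which 3.44% of windows matched at least once and 0.225% at least 2 times. No other window of these genes held that element. The composite of ETS and IRF sites, searched on both strands as GGAA, 2 bases of any kind and GAAA, was in none of the 9 windows and in 2.72% of all windows. A match is a run of letters and says nothing of binding.

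Siglech encodes Siglec-H, a sialic acid-binding surface lectin that signals through the adaptor Tyrobp (DAP12) and is widely used as a surface marker of these cells in the mouse. Its rlog was 6.92 and 6.84 in wild type and 6.44 and 5.76 in DKO. Rlog is a regularized log2 expression value that shrinks differences, above all where a gene has few reads. Both DKO samples lay under both wild-type samples, and they stood further from each other than the wild-type samples did. The difference, DKO minus wild type, was -0.78 (SE 0.182), a level 1.72-fold lower. It was -0.44 without DKO replicate 2 and -1.12 without DKO replicate 1, so its size turned on which DKO sample was used. The gene lies at GRCm38 chromosome 7, 55768178 to 55778925. In bulk RNA, fewer cells of a type and less RNA per cell cannot be told apart.

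Ly6d encodes a GPI-anchored surface protein that marks lymphoid-biased progenitors and some plasmacytoid dendritic cells. Its rlog was 7.60 and 7.27 in wild type and 6.58 and 6.06 in DKO (chromosome 15, 74762056 to 74763620). The groups did not overlap, and DKO replicate 2 was again lowest. The difference of -1.11 (SE 0.17), 2.16-fold, was the largest of the 10 genes in size. This describes a gene that the same comparison chose. Dntt encodes terminal deoxynucleotidyl transferase, the polymerase that adds bases without a template at the joints of rearranged antigen receptor genes. Its rlog was 4.92 and 4.71 in wild type and 4.17 and 4.01 in DKO (chromosome 19, 41029275 to 41059525). This is a low level, where rlog shrinks differences most, and the groups were apart by 0.55. The difference was -0.73 (SE 0.122), 1.66-fold.

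The transcription factors did not move one way. Tcf4 was at 8.98 and 8.89 in wild type and at 9.31 and 9.32 in DKO. It was thus higher in both DKO samples, by 0.38 (SE 0.0836), opposite to Siglech, Ly6d and Dntt. Spib was at 6.60 and 6.56 in wild type and at 6.24 and 6.22 in DKO. Its difference of -0.35 (SE 0.109) was smaller than those of the surface genes, but its replicates lay close together and the groups were apart by 0.32. Irf8, which supports the development of several dendritic and monocyte lineages, was at 11.93 and 11.83 in wild type and 11.99 and 11.95 in DKO. Runx2, which takes part in the exit of these cells from bone marrow, was at 11.29 and 11.19 in wild type and 11.10 and 11.17 in DKO. For both genes the gap between the groups was small, 0.024 and 0.018, beside SDs of 0.0704 and 0.0691 in wild type.

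The remaining genes serve sensing and its regulation. Bst2, the tetherin recognised by antibodies to PDCA-1, was at 10.56 and 10.65 in wild type and at 10.70 and 10.60 in DKO, and the groups overlapped. Tlr9, the endosomal receptor for DNA with unmethylated CpG, was at 7.35 and 6.96 in wild type and at 6.91 and 7.08 in DKO, and here too the groups overlapped. Its difference of -0.16 (SE 0.138) became 0.028 without wild-type replicate 1, the highest sample. Pacsin1, a membrane-bending adaptor that takes part in the interferon response of plasmacytoid dendritic cells to TLR9 ligands, was at 5.14 and 5.07 in wild type and at 5.04 and 5.02 in DKO, apart by 0.037.

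**Figure D1:**
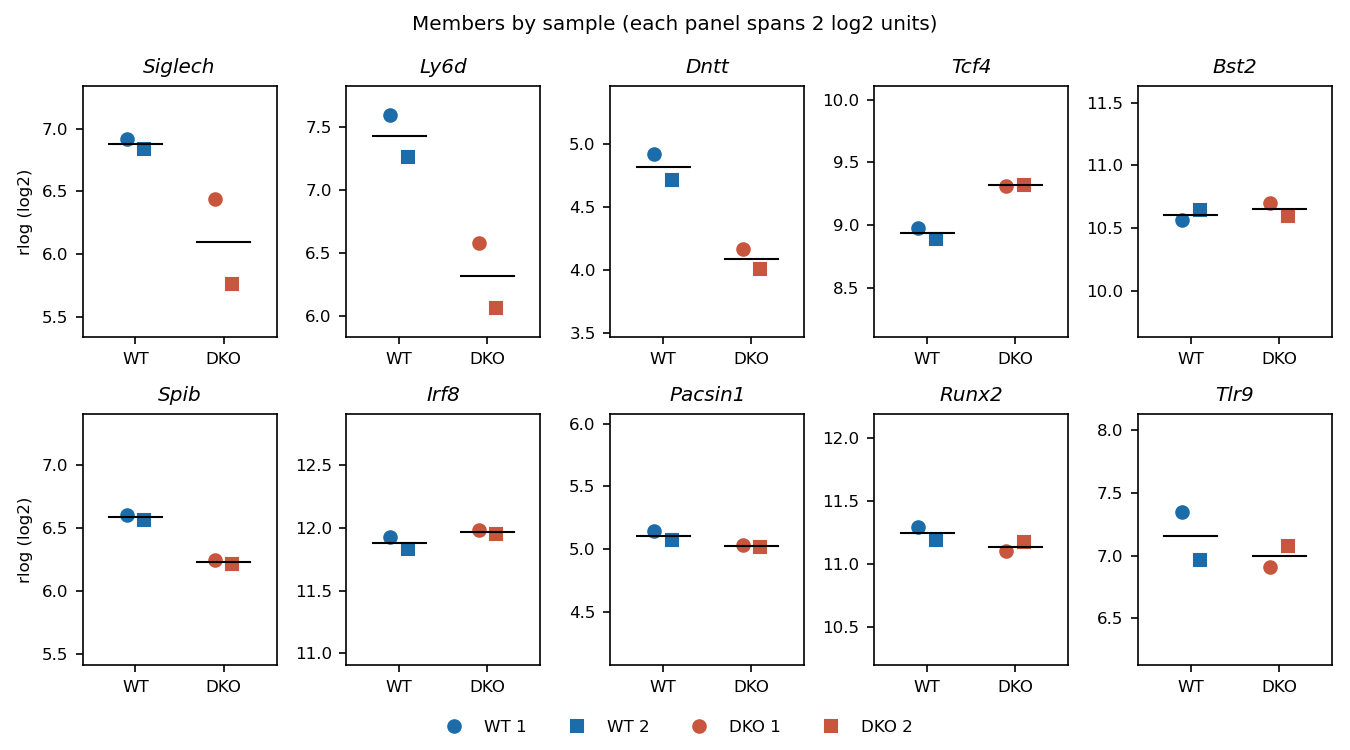
Rlog (log2) of each of the 10 genes in each sample, with wild type in blue, DKO in red, replicate 1 as circles, replicate 2 as squares and group means as black lines. Each panel spans the same number of log2 units, so that the gaps for Ly6d (-1.11), Siglech (-0.78) and Dntt (-0.73) can be compared with those for Tcf4 (0.38) and Bst2 (0.047).

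All 10 genes passed the minimum mean rlog of 4 for testing. Groups did not overlap for 8 of them, lower in DKO for 6 and higher for 2. Groups were apart in 55.3% of the tested genes, with DKO lower in 30.3% and higher in 25.0%, and nothing is read from the count for the members, since this comparison chose them. The median difference of the 10 genes was -0.135, beside -0.022 over all tested genes. The 10 genes thus spread from -1.11 to 0.38, with Siglech, Ly6d and Dntt at one end, Spib between, and the other genes within 0.17 of 0 except Tcf4. The lowest value was in DKO replicate 2 for 5 of the 10 genes, and nothing is read from this either.

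Levels of different genes were compared per length, as rlog minus the log2 of the exon length in kb. On this scale Bst2 was highest (mean 10.8 over the 4 samples), followed by Irf8 (9.11), Runx2 (8.05), Ly6d (7.30), Tlr9 (5.28), Spib (4.89), Siglech (4.73), Tcf4 (4.35), Dntt (3.26) and Pacsin1 (2.36). The ranges over samples overlapped for the neighbours Runx2 and Ly6d, Spib and Siglech, and Siglech and Tcf4. They also overlapped for Tlr9 (lowest 5.11) and Siglech (highest 5.16), so none of these pairs was set apart. Ly6d had the widest range, from 6.48 to 8.03. Exon length is the union over all annotated transcripts, 27.4 kb for Tcf4, which lowers the level per length of a gene with many alternative exons.

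**Figure D2:**
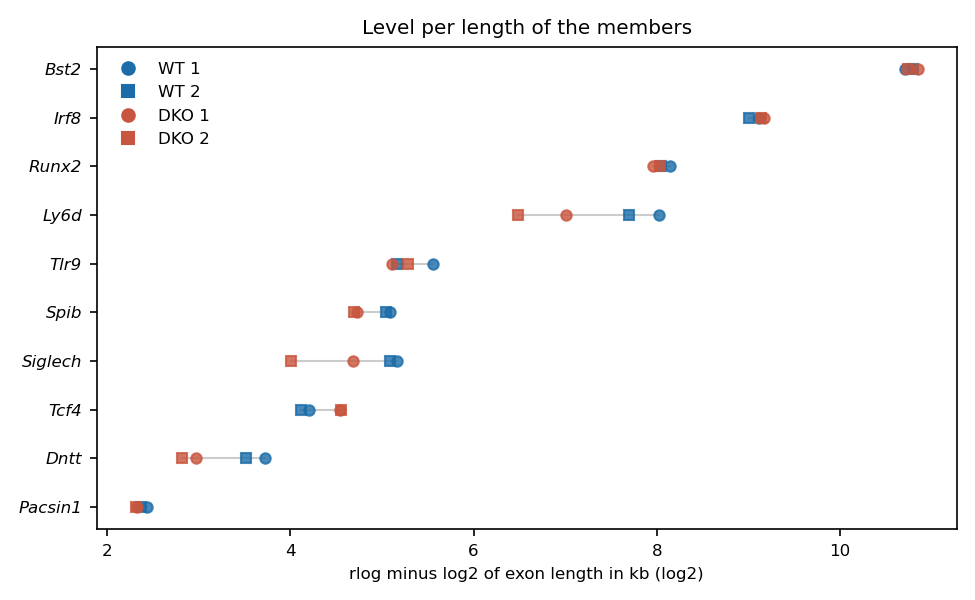
Level per length (rlog minus log2 of exon length in kb, log2 scale) of the 10 genes in the 4 samples, ordered by mean. Bst2 (10.8) and Irf8 (9.11) stand at the top with narrow ranges, while Ly6d and Siglech have the widest ranges.

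Other genes of plasmacytoid dendritic cells went both ways. Of 24 such genes 22 were tested in limma, where 5 fell, 2 rose and 15 did not pass at a Benjamini-Hochberg adjusted p under 0.05. Over all 13528 tested genes 14.8% passed, 9.92% higher and 4.85% lower in DKO. The median difference of the list was -0.052, beside -0.022 over all tested genes. The genes that fell were Clec12a, an inhibitory lectin shared with other myeloid cells (-0.68, SE 0.0818, adjusted p = 0.000224 in limma), Klra17, the receptor Ly49Q (-0.46, SE 0.129), Ccr9, a gut homing receptor (-0.43, SE 0.107), Lair1, a collagen receptor (-0.42, SE 0.0848), and Pld4, an endolysosomal exonuclease (-0.36, SE 0.0766). Nrp1 (0.64, SE 0.105), which endothelium also expresses, and Sh3bgr (0.57, SE 0.12) rose. Which cells the falls and the rises came from was not tested.

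Several of these calls were lost when 1 sample was left out. Clec12a and Nrp1 passed in limma without any 1 of the samples. Klra17 (-0.37, adjusted p = 0.212) and Ccr9 (-0.39, adjusted p = 0.118) lost their calls without wild-type replicate 1, and again without DKO replicate 2 (adjusted p = 0.106 and 0.0512). Lair1 lost its call without wild-type replicate 2 (adjusted p = 0.073), Sh3bgr likewise (adjusted p = 0.0755), and Pld4 with either wild-type sample left out (adjusted p = 0.0776 and 0.0508). Without DKO replicate 1, 9 genes of the list were lower and 4 higher, with Bcl11a (-0.43), Cd300c (-0.43), Blnk (-0.33) and Atp1b1 (-0.33) among the lower and Cd8a (1.10) and Lag3 (0.32) among the higher. DKO replicate 2 held the lowest value for 9 of the 22 genes (40.9%), against 23.9% of all tested genes. In a fit without a sample, the spread among samples comes from the other group alone, and the lone sample is assumed to vary like that group. With no minimum on the mean rlog, 0 genes of this list passed in either direction, as the number of calls over all genes fell from 1342 higher and 656 lower to 181 and 25.

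Cox6a2, a cytochrome oxidase subunit known as a marker of these cells, was under the minimum with rlog values of 3.78 and 3.90 in wild type and 3.68 and 3.30 in DKO. Bcl11a, a zinc finger factor upstream of Tcf4, was at 5.40 and 5.47 in wild type and at 5.38 and 5.002 in DKO (adjusted p = 0.303 in limma). For both, as for Siglech and Ly6d, the lowest value was in DKO replicate 2, which held for 9 of the 22 tested genes of the list. Smim5, the other gene of the list under the minimum, was lowest in DKO replicate 1 (1.20). Tlr7 was also lowest there (8.345), and Irf7 was lowest in wild-type replicate 1 (10.50). Tlr7 and Irf7, which are also expressed by other cells, did not pass (adjusted p = 0.785 and 0.955).

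**Figure D3:**
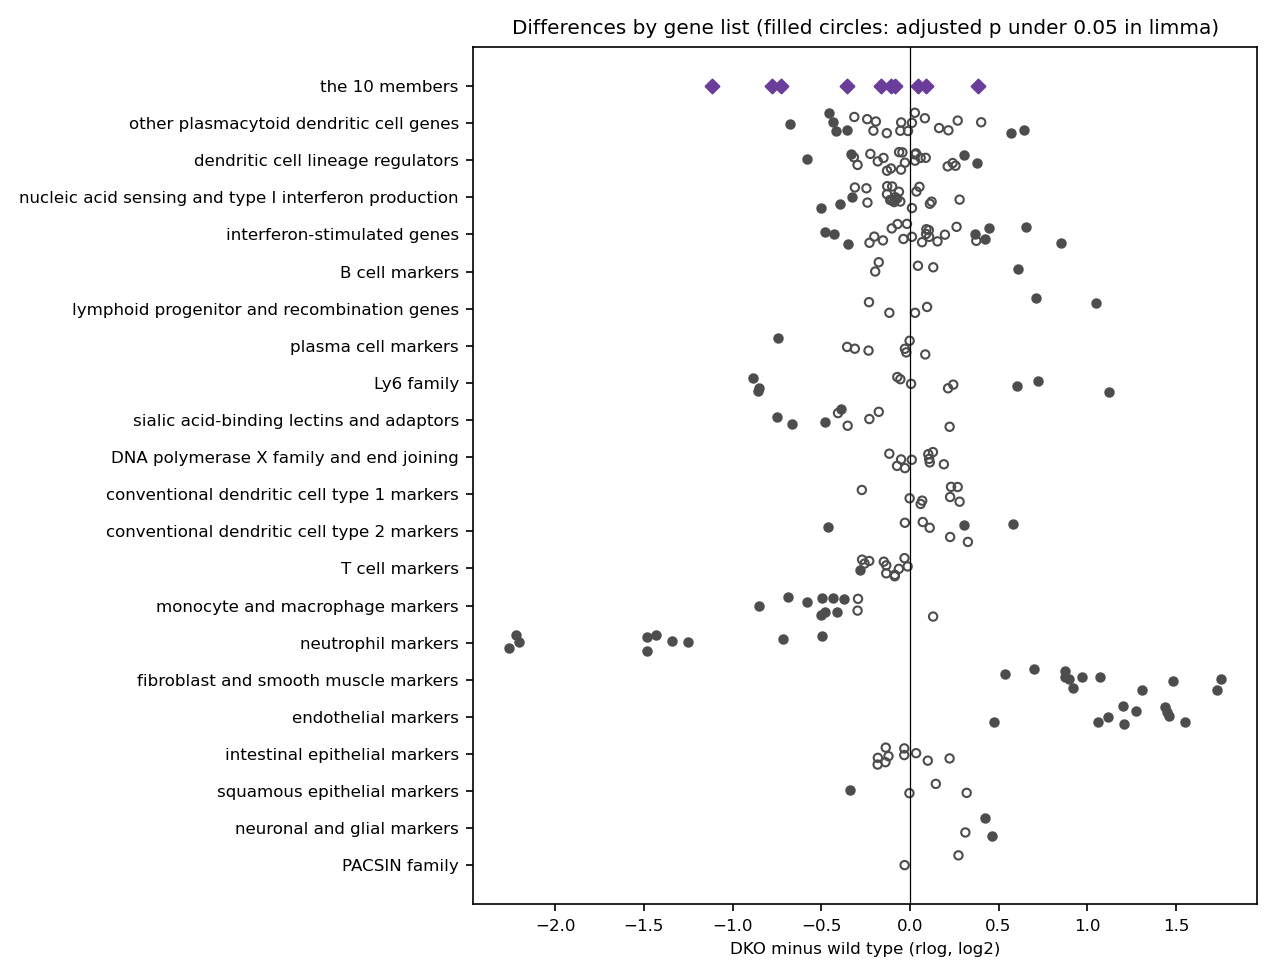
Difference between DKO and wild type (rlog, log2) for the 10 genes (diamonds, with no test) and for each tested gene of the other lists (circles, filled where the adjusted p in limma was under 0.05). The 10 genes spread from -1.11 to 0.38, the neutrophil genes lie left of 0 and the fibroblast, muscle and endothelial genes right of it.

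Among 23 regulators of dendritic cell lineages 2 rose, 2 fell and 19 did not pass. Spi1, which encodes the ETS factor PU.1 of myeloid cells, fell by 0.58 (SE 0.0988, adjusted p = 0.00204 in limma), and Nfil3 by 0.33. Id3, an inhibitor of E proteins, rose by 0.38 (SE 0.0791, adjusted p = 0.00716). Id2, the inhibitor that opposes Tcf4, was at 12.98 and 13.25 in wild type and at 12.82 and 12.77 in DKO, lower in both DKO samples but without a call (adjusted p = 0.0737). It passed when wild-type replicate 1 or DKO replicate 1 was left out (adjusted p = 0.0494 and 0.0323). Zbtb46, a factor of conventional dendritic cells, rose by 0.30 (adjusted p = 0.0453), but lost its call when either wild-type sample or DKO replicate 2 was left out (adjusted p = 0.103, 0.295 and 0.115). Nfil3 lost its call with either wild-type sample left out (adjusted p = 0.118 and 0.111). The E proteins Tcf3 and Tcf12 and the corepressor Cbfa2t3 (Mtg16), a partner of E proteins, had differences of -0.043, 0.089 and 0.030 and did not pass.

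The machinery of nucleic acid sensing had 0 rises and 3 falls among 23 tested genes. These were Ctss, a protease of endolysosomes (-0.50, SE 0.111), Unc93b1, the chaperone that carries nucleic acid-sensing Toll-like receptors to endosomes (-0.40, SE 0.0905), and Irf5 (-0.32, SE 0.0834). Each of them lost its call in limma without wild-type replicate 1 (adjusted p = 0.0614, 0.069 and 0.191) and without wild-type replicate 2 (adjusted p = 0.0866, 0.0534 and 0.0526), and Irf5 also without DKO replicate 1 (adjusted p = 0.0533). Tlr13 was called lower without wild-type replicate 2 or without DKO replicate 1 (-0.42 and -0.41), and without DKO replicate 2 the list had 5 falls, Lgmn (-0.30) and Ifnar2 (-0.29) among them. Ifnb1, the interferon beta gene, was at 6.40 and 6.82 in wild type and at 6.64 and 6.83 in DKO, and the groups overlapped. Slc15a4 and Ap3b1, which support endosomal signalling in plasmacytoid dendritic cells, had differences of -0.089 and -0.062 and did not pass.

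Interferon-stimulated genes, the class to which Bst2 also belongs, were split. Of 25 genes 5 rose, 3 fell and 17 did not pass, with a median difference of 0.091. Ifit3 rose by 0.85 (SE 0.1, adjusted p = 0.000182 in limma), Ifi44 by 0.66 (SE 0.115), Mx2 by 0.45, Usp18 by 0.42 and Mx1 by 0.37. Siglec1, a sialic acid-binding lectin of macrophages, fell by 0.48, Oas3 by 0.43 and Isg15 by 0.35. Ifit3 and Ifi44 passed without any 1 of the samples. The other 6 calls were lost without wild-type replicate 1 (adjusted p from 0.0571 for Usp18 to 0.106 for Siglec1). Mx1, Mx2, Usp18 and Isg15 were also lost without wild-type replicate 2 (adjusted p = 0.152, 0.0722, 0.0989 and 0.258), Mx2 without DKO replicate 2 (adjusted p = 0.0808), and Usp18 and Isg15 without DKO replicate 1 (adjusted p = 0.0619 and 0.115, with Isg15 at -0.23). Other calls appeared when a DKO sample was left out. Without DKO replicate 1 the list had 8 genes higher, with Ifit1 (0.44), Ifit2 (0.64), Oasl1 (0.32) and Ifih1 (0.31) added. Without DKO replicate 2 it had 5 lower, with Rsad2 (-0.54) and Rtp4 (-0.32) added, and Stat2 (0.37) was called higher.

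The gene families of the 3 leading members were looked at in turn. Of 11 tested Ly6 family genes 3 fell, 3 rose and 5 did not pass. Ly6g, a neutrophil marker, fell by 0.88 (SE 0.127), Ly6i by 0.86 and Ly6c2, a monocyte marker, by 0.85, while Ly6c1 rose by 1.12 (SE 0.101, adjusted p = 3.92e-05 in limma), Gpihbp1, a capillary protein, by 0.72 and Lynx1 by 0.60. Of 9 sialic acid-binding lectins and adaptors 4 fell, 0 rose and 5 did not pass. These were Cd33 (-0.75, SE 0.0826), Siglece (-0.66, SE 0.104), Siglec1 and Tyrobp (-0.39, SE 0.0835), which myeloid cells of several kinds express. The list had 6 falls with robust variances and with median centring, with Mag (-0.41 and -0.42) and Hcst (-0.35 and -0.36) added. Siglecg was at 0.47 without DKO replicate 2. Siglec1 lost its call without wild-type replicate 1 (adjusted p = 0.106), and Tyrobp with either wild-type sample left out (adjusted p = 0.0517 and 0.0866). Of 10 genes of end joining and of the polymerase X family, to which Dntt belongs, 0 passed in limma, and 0 had an unadjusted p under 0.05. Counts at an unadjusted p are given without the share over all tested genes, and nothing is read from them. Polm, the polymerase closest to Dntt, was at 0.19 (adjusted p = 0.271). Of the Pacsin1 relatives Pacsin2 and Pacsin3, 0 passed (differences of -0.030 and 0.27, with an unadjusted p under 0.05 for 1).

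B cells and their precursors also express Ly6d, Dntt, Spib and Tlr9, and several of their defining markers were at or near 0, while others were not. Pax5 was listed at 0 in all 4 samples, and Cd79a, Ms4a1, Cr2 and Fcer2a were under 0 on the rlog scale in all 4. Cd79b, a part of the B cell receptor complex, was at 5.73 and 5.71 in wild type and at 5.77 and 5.76 in DKO and did not pass (adjusted p = 0.85 in limma). Ighm, the heavy chain of immunoglobulin M, was at 8.89 and 8.92 in wild type and at 8.92 and 8.497 in DKO, lowest in DKO replicate 2 as were Siglech and Ly6d, and it was called lower in limma without DKO replicate 1 (-0.41, adjusted p = 0.00723). Of 14 B cell markers 9 were under the minimum for testing, 1 of the 5 others rose and 0 fell. The one that rose was Ebf1 (0.61, SE 0.112, adjusted p = 0.00324 in limma), a factor also known from stromal cells. The log2 of the summed level of the list was 9.65 and 9.67 in wild type and 9.73 and 9.47 in DKO. Among genes of lymphoid progenitors and recombination Rag2 was listed at 0 in all samples, Rag1 was between 2.34 and 2.51, and Vpreb1, Vpreb3, Igll1 and Ptcra were between -1.50 and 0.62. Of the 6 tested genes of that list Cd34 (1.05) and Kit (0.71), which endothelium and mast cells respectively also express, rose, and 0 fell. Of 8 tested plasma cell markers 1 fell, Sdc1 (-0.74, SE 0.118), which other cells also express. The count was 2 without wild-type replicate 1, with the immunoglobulin gene Igha at -0.83 (adjusted p = 0.00106 in limma), and 2 without DKO replicate 1, with Igkc at -0.46 (adjusted p = 0.0274). Jchain was between 2.04 and 2.52, and Tnfrsf17 was listed at 0.

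**Figure D4:**
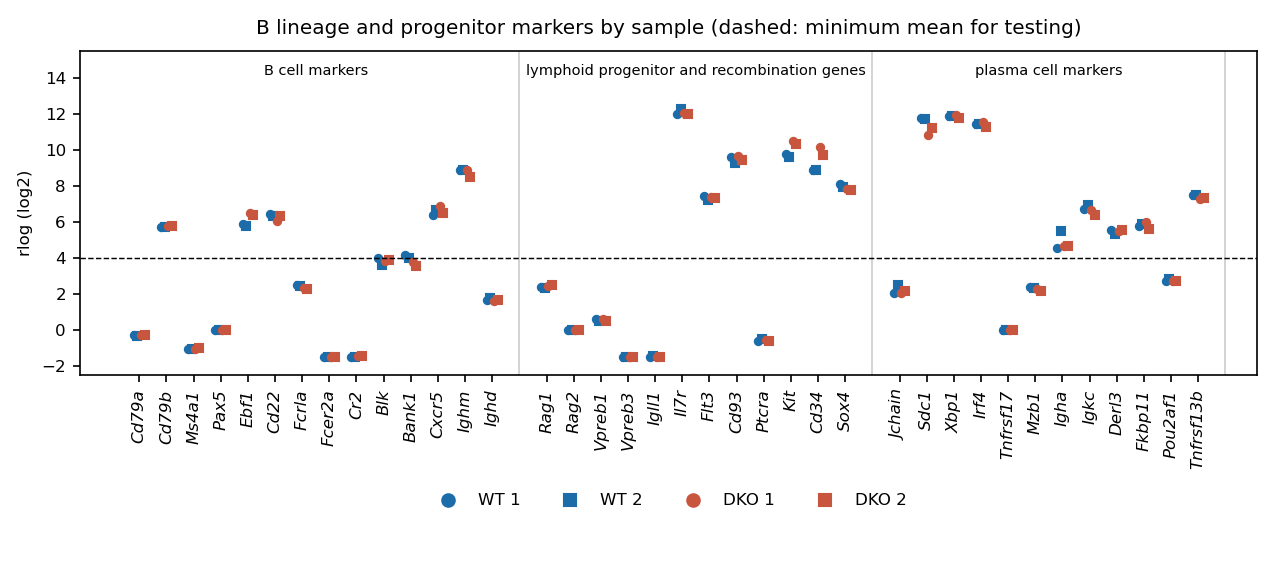
Rlog (log2) of B cell, lymphoid progenitor and plasma cell markers in the 4 samples, with wild type in blue and DKO in red. Pax5, Rag2 and Tnfrsf17 lie at 0, and several other defining markers lie under the minimum mean of 4 (dashed line), in both groups.

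Other cell types moved with the groups. Neutrophil markers fell in 10 of 10 cases (median -1.46), led by Ngp (-2.26, SE 0.172), and the log2 of their summed level was 15.86 and 15.94 in wild type against 14.75 and 14.28 in DKO. Of 12 monocyte and macrophage markers 9 fell and 0 rose (median -0.46). Without wild-type replicate 1 the falls were 5, as Csf1r, Adgre1, Cd68 and Cd14 lost their calls (adjusted p = 0.204, 0.186, 0.0685 and 0.0612 in limma). All 12 fibroblast and muscle markers rose (median 0.95), and so did all 10 endothelial markers (median 1.24). With no minimum on the mean rlog, 3 fibroblast and muscle, 4 endothelial and 1 neutrophil markers passed, and 0 monocyte and macrophage markers. Lum did not pass without a variance trend (adjusted p = 0.0616 in limma). With robust variances 8 of the 12 fibroblast and muscle markers passed, without Myh11, Acta2, Des and Lum (adjusted p = 0.202, 0.217, 0.321 and 0.197), and 7 of the 10 neutrophil markers, without Camp, Mmp8 and Retnlg (adjusted p = 0.231, 0.214 and 0.126). Tcf4 was higher beside these stromal and vascular genes, and Siglech, Ly6d, Dntt and Spib were lower beside the myeloid genes. The part of these cells in the result was not tested.

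Markers of conventional dendritic cells went both ways. Of 8 markers of type 1 cells, which depend on Irf8 and Batf3, 0 passed in limma, and 3 had an unadjusted p under 0.05. The share of all tested genes with such a p is not given, and nothing is read from this count. Itgae was called higher without wild-type replicate 2 (0.42), Itgae and Cadm1 without DKO replicate 1 (0.35 and 0.41), and Naaa was called lower without DKO replicate 2 (-0.35). Xcr1 was at 5.41 and 5.37 in wild type and at 5.47 and 5.45 in DKO, and Clec9a at 6.37 and 5.99 and at 6.43 and 6.40. Of 8 markers of type 2 cells Mgl2 (0.58) and Zbtb46 rose, and Sirpa, which macrophages also express, fell by 0.46. Mgl2 was at 0.35 without DKO replicate 1 and lost its call there (adjusted p = 0.11), and also without wild-type replicate 1 (adjusted p = 0.0808). A difference between these lists and Siglech was not tested.

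The 12 T cell markers all had lower means in DKO, with differences from -0.28 to -0.013 (median -0.134, beside -0.022 over all tested genes). Nothing is read from the 4 of these 12 markers with an unadjusted p under 0.05 in limma, as the share over all tested genes is not given. Of them Trat1 passed in limma (-0.28, adjusted p = 0.04), and it lost its call with either wild-type sample left out (adjusted p = 0.0727 and 0.375). Without DKO replicate 2 the list had 4 falls, with Cd3d (-0.31), Cd3e (-0.35) and Bcl11b (-0.37) among them. Of 10 intestinal epithelial markers 0 passed in limma, and 1 had an unadjusted p under 0.05, from which nothing is read either. Epcam, an epithelial marker, was between 10.75 and 11.05 in these mononuclear cell samples. For stratified epithelium, which expresses Ly6d, 6 of 10 markers were under the minimum, with highest values of 1.05 for Trp63 and 0.28 for Dsg3. Krt5 was at 7.42 and 7.15 in wild type and at 8.24 and 6.97 in DKO, and only Sfn fell (-0.34), not passing with replicate 2 of either group left out (adjusted p = 0.233 and 0.065). Without DKO replicate 2, Krt5 (0.96) and Krt6a (0.45) were called higher. Of 11 neuronal and glial markers, which bear on Pacsin1, 8 were under the minimum, and Tubb3 (0.46) and Ret (0.42) rose. Both were lost without wild-type replicate 2 (adjusted p = 0.202 and 0.225), and Ret without DKO replicate 1 (adjusted p = 0.0742).

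The genes whose values over the 4 samples were most like the mean centred profile of Siglech, Ly6d and Dntt were found by the root mean square difference of centred rlog values. Of the tested genes with an established symbol, the 6 closest were Padi4, a peptidylarginine deiminase (0.049), Il1f9, a cytokine of the interleukin 1 family (0.074), Ly6g, a neutrophil marker (0.092), Mmp9, a gelatinase (0.11), Cxcr2, a chemokine receptor (0.11) and Rdh12, a retinol dehydrogenase (0.12). Cxcr2 is also among the neutrophil markers above, whose log2 summed level was lowest in DKO replicate 2 too (14.28). The part of neutrophils in this profile was not tested, and which cells express the other genes named here was not looked at. Padi4 was at 7.34 and 7.18 in wild type and at 6.69 and 6.11 in DKO, with DKO replicate 2 lowest as for Siglech. The values of Ly6g were 7.08, 7.10, 6.36 and 6.05, in the same order of samples. The 6 genes were picked for being like the profile, so their shared pattern was fixed by the choice. In 30.3% of all tested genes, too, both DKO samples lay under both wild-type samples.

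**Figure D5:**
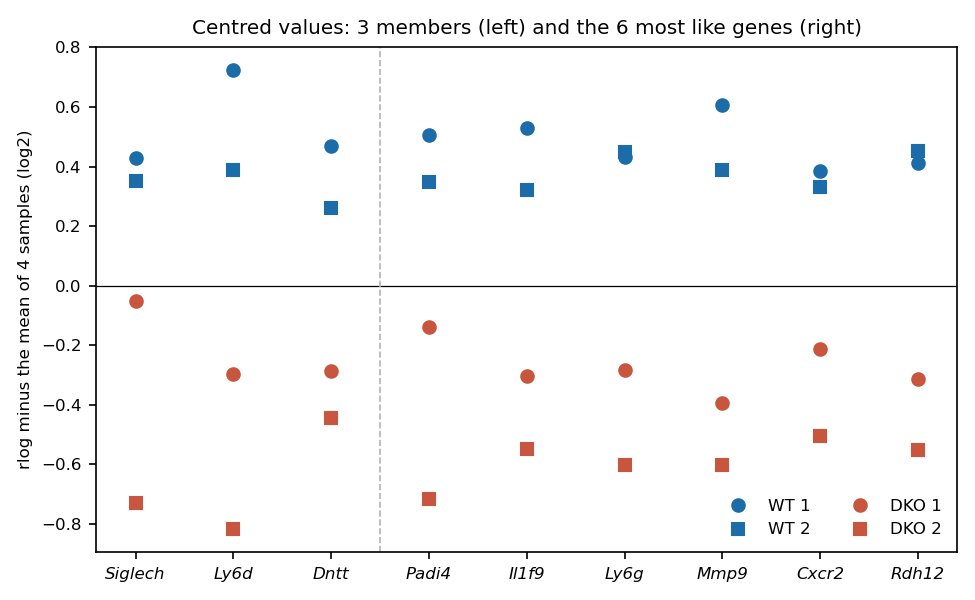
Rlog minus the mean of the 4 samples (log2) for Siglech, Ly6d and Dntt (left of the dashed line) and for the 6 most like genes (right). In all 9 genes both wild-type samples lie above 0 and both DKO samples under 0, with DKO replicate 2 lowest. The genes were chosen for this pattern, so the agreement was fixed by the choice and nothing is read from it.

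Across the samples the median rlog of the tested genes was 8.33 to 8.35. Read totals were not analysed here, and how deeply each sample was sequenced is unknown. The replicates are called biological, but whether each is a separate animal is not said, and p-values cover the spread between these samples only.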

How the data were processed

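Stranded mRNA libraries of 4 samples of lamina propria mononuclear cells, 2 per treatment label, were sequenced, per the labels' protocols. The authors deposited rlog, the regularized log2 of DESeq2, as the name of their table and the submitters' processing notes give it. The build is GRCm38 and the notes name STAR 2.5.4a and Subread 1.5.2 among the tools, without roles or settings. A further 2 columns of the table have no labelled sample and were left out, though they may have entered the shrinkage. Depth is unknown, as counts were not analysed here.

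Symbols came from GENCODE M21 for 48058 of 48526 identifiers. In limma 3.58.1 (R 4.3.3) group was the only term for the 13528 genes whose mean rlog was 4 or more. Variances were moderated with a trend, tests were two-sided, and p-values were adjusted by Benjamini-Hochberg with a threshold of 0.05. SE is that of the moderated fit. The code was tested on simulated data. The members and the 21 gene lists were chosen with earlier results of these data known. Of the B cell list, 1 gene is not reported here and was left out of that list. Named are the members, up to 3 genes of a list by smallest p, genes counted by name, markers at 0 or under the minimum, and the 6 most like genes. Not every gene this rule takes is described, and some list genes (Bcl11a, Cd300c, Blnk, Atp1b1, Tlr7, Irf7, Id2, Tcf3, Tcf12, Cbfa2t3, Ifnb1, Slc15a4, Ap3b1, Xcr1, Clec9a, Cd79b, Ighm, Krt5 and Epcam) were chosen for their role, and others for a call gained or lost under an alternative, after their values were seen. Alternatives were no or a stricter minimum, no trend, robust variances, median centring, quantile normalization, sample weights and leaving out each sample.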

Additional observations from a re-analysis of the deposited data

How the results depend on the processing

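Siglech, Ly6d, Dntt, Spib and Tcf4 kept the sign of their differences with median centring and with quantile normalization. Their groups did not overlap, so leaving out a sample could not change the sign, and only the sizes are described. With these settings and without each sample in turn, the ranges were -1.12 to -0.44, -1.38 to -0.85, -0.85 to -0.63, -0.48 to -0.34 and 0.34 to 0.42. Bst2 and Tlr9 changed sign without 1 sample (-0.0042 without DKO replicate 1 and 0.028 without wild-type replicate 1). With quantile normalization Irf8 was at 0.17, Pacsin1 at -0.23 and Runx2 at -0.033, the cause of which was not tested. With no minimum on the mean rlog 181 genes were called higher and 25 lower, and 0 and 0 of the other plasmacytoid dendritic cell genes. With a minimum of 6 they were 878 higher among fewer genes tested. Leaving out 1 sample at a time gave 1008 to 1660 genes higher and 324 (without wild-type replicate 2) to 1222 (without DKO replicate 2) lower, and 2 to 4 of the other plasmacytoid dendritic cell genes higher and 3 to 9 lower. Klk1, a kallikrein of that list with no call in the fit of all samples (0.028), was at -0.51 without wild-type replicate 1 and at 0.56 without wild-type replicate 2. With quantile normalization the genes called fell to 0 for T cell markers (lower), type 2 dendritic cell markers (higher), neuronal markers (higher) and stratified epithelium (lower), and to 1 for nucleic acid sensing (lower). No paired analysis was possible because the labels give no replicate numbers and no pairing. The replicate numbers used here follow the order in which the samples are listed within each group, and they pair nothing.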
